A study of Rattus norvegicus with 9 samples.

Results

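The genes described here are the cytochrome P450 enzymes, the UDP-glycosyltransferases and the cytosolic sulfotransferases of rat kidney cortex. They were taken by symbol from the table of normalised read counts, as names that begin with Cyp, Ugt or Sult and a digit and that averaged at least 10 over the 9 replicates. Of 68 such rows, 8 were left out by name (Cyp51, Cyp24a1, Cyp27b1, Cyp2c23, Cyp4a1, Cyp4a2, Cyp4a3 and Cyp4a8) and 28 averaged under 10, of which 5 were at 0 in every replicate. The remaining 32 genes, 23 P450s, 3 glycosyltransferases and 6 sulfotransferases, were 0.174% of the 18420 genes listed. All 32 belonged to the 13647 genes that reached this mean and entered the tests. Just inside that limit lay Cyp1a1 at a mean of 17.6, Cyp2c24 at 24.1 and Cyp2f4 at 26.1, and just outside it lay Cyp21a1 at 9.44, Cyp2d3 at 9.26 and Cyp46a1 at 9.12.

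RNA was sequenced from the cortex of diabetic rats of the obese ZDF fa/fa strain, which carry the leptin receptor mutation fa on both alleles. The 9 replicates all carry the label Medical Bypass, a treatment from a study on bypass surgery, medical bypass and diabetic kidney disease, and the labels give no drug, dose, time, age or sex. No untreated or lean animals are analysed here, so no comparison between groups could be made, and the tests below ask which genes differed between replicates and with what they varied. Nothing in the labels says that the replicates were separate animals, so p-values measure the spread between these samples only. Values are read counts divided by a size factor for each library and were not corrected for gene length, so levels are compared between replicates of a gene and not between genes.

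P450s are haem enzymes that insert oxygen into drugs, fatty acids, steroids, vitamin D and retinoic acid, with electrons passed on by P450 oxidoreductase in the endoplasmic reticulum or by ferredoxin in mitochondria. Glycosyltransferases join a sugar from a UDP-sugar, and sulfotransferases a sulfate from PAPS, to hydroxyl groups of drugs, hormones and lipids, which makes them easier to excrete. In kidney cortex these enzymes are known mainly from the proximal tubule, whose S1 and S2 segments take up filtered solutes and whose S3 segment is in rats the site of many enzymes that differ between the sexes.

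Promoters are shown for Cyp2d5, Cyp2j4, Cyp2c24 and Sult2b1, because these genes and Cyp1a1 had the smallest p-values for a slope on S3 markers in the results below. They are the 250 bases before the start of the gene in RefSeq's rat assembly GRCr8, 5′ to 3′ on the gene's strand, and capitals mark matches to 7 short motifs given after them. RefSeq's table held 28 of the 32 genes, and Cyp1a1, Cyp17a1, Cyp4v3 and Cyp7b1 were not matched.
Cyp2d5, chr7:115784488-115784737, minus strand: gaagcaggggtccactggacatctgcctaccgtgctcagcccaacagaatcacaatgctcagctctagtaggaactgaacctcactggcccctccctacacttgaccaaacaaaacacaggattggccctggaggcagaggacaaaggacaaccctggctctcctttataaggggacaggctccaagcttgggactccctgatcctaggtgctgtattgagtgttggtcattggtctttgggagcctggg
Cyp2j4, chr5:116323043-116323292, minus strand: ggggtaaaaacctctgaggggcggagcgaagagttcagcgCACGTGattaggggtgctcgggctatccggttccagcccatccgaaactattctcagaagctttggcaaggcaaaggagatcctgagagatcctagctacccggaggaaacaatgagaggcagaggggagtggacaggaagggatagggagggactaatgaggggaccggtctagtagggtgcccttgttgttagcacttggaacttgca
Cyp2c24, chr1:246286091-246286340, plus strand: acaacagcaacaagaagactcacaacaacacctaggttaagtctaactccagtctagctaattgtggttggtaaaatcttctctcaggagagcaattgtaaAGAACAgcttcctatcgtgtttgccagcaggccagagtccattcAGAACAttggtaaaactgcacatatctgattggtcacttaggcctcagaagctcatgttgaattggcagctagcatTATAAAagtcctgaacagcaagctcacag
Sult2b1, chr1:105397745-105397994, minus strand: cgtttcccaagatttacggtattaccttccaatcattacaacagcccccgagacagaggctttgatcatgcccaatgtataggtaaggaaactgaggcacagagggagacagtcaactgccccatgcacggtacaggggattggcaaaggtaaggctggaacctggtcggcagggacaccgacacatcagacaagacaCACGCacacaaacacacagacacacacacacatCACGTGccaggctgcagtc
The motifs searched on both strands were TGTTCT (a core of steroid hormone response elements, AGAACA on the other strand), AGGTCA (a core of nuclear receptor elements), GCGTG (the core bound by the Ah receptor, CACGC on the other strand), CACGTG (an E-box), TTATGTAA (a D-box) and the HNF1 motif, and TATAAA was searched on the gene's strand only. GCGTG and CACGTG share letters and their matches can overlap. The Cyp2d5 window held none of the 7. The Cyp2j4 window held 1 CACGTG. Cyp2c24 had AGAACA at 2 places and TATAAA near its start, and Sult2b1 had CACGC and CACGTG. Over the 28 windows, TGTTCT was in 11 (39.3%) against 17.5% of 33469 promoters. AGGTCA was in 6 (21.4%) against 14.1%, and GCGTG in 11 (39.3%) against 25.9%. CACGTG was in 2 (7.14%) against 5.59%, and TATAAA in 3 (10.7%) against 8.06%. TTATGTAA and the HNF1 motif were in 0 of the 28 and in 0.828% and 0.323% of all promoters. These counts describe letters in a window and say nothing of a factor's binding.

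Reads assigned to genes numbered 10757440 in replicate 3 to 43071223 in replicate 8, with a mean of 26045365 ± 9955332 (SD, n = 9), so 1 read was worth 0.544 to 1.99 on the scale of the values. The multi-mapped share, reads left out of the gene counts because they aligned at several places, was 14.9% to 22.1% of all counted reads and highest in replicate 5. The 32 genes took 0.449% ± 0.0548 (SD, n = 9) of the reads in genes, from 0.352% in replicate 5 to 0.539% in replicate 2. Proximal tubule markers of S1 and S2 were at high levels in every replicate, with 13 of 14 listed genes found and a summed level from 203931 in replicate 1 to 405959 in replicate 8. The 8 liver markers summed to between 3955 and 5675, most of it Tf and Fga with means of 2781 and 1077, then Fgb, Serpina1 and Apoh with 577, 288 and 127, while Alb was at most 21.1, Apoa1 at most 10.3 and Ttr at most 2.93. The 4 lymphocyte markers found summed to at most 18.5. The 5 adrenal markers found summed to between 1501 and 3186, nearly all of it Fdx1, with Star at most 33.4, Mc2r at most 8.20, Nr5a1 at most 5.99 and Akr1b7 at most 2.00.

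Among the 9 P450s of drug and xenobiotic metabolism in families 1 and 2, 7 had a highest replicate at least 2 times the lowest. Over all 32 genes this held for 19 (59.4%), beside 50.5% of the genes tested. Cyp2e1, which oxidises ethanol, ketones and small solvents, took the most reads of the 32, with a lowest normalised read count of 25532 in replicate 1, a median of 37559.8 and a highest of 50561 in replicate 7. Cyp2d2, Cyp2d4 and Cyp2d5 are rat members of the family that oxidises many basic drugs. Their spread differed: Cyp2d2 ran from 2983 through a median of 3604 to 4890, and Cyp2d4 from 409 through 588 to 871. Cyp2d5 was 502.8, 461.4, 161.2, 370.4, 426.8, 147.0, 276.5, 163.7 and 105.4 in replicates 1 to 9. It was thus above 370 in replicates 1, 2, 4 and 5, below 164 in replicates 3, 6, 8 and 9, and between these in replicate 7, a 4.77-fold range. The Cyp2d genes resemble each other in sequence, and multi-mapped reads were not assigned to a gene.

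Cyp1a1, the classical target gene of the Ah receptor, was 61.7, 42.7, 5.97, 29.0, 8.05, 6.84, 2.00, 1.09 and 1.30 in replicates 1 to 9. It was highest in replicates 1, 2 and 4, with 60, 55 and 44 reads, and replicates 7, 8 and 9 held only 2, 2 and 1 reads. Cyp2c24 was 18.5, 48.9, 17.9, 46.8, 19.0, 10.9, 25.96, 13.1 and 15.6 in replicates 1 to 9, so replicates 2 and 4 stood above the rest. Cyp2f4, of a subfamily known for oxidising naphthalene, ran from 7.81 in replicate 9 through a median of 25.9 to 49.9 in replicate 7. Cyp2s1, a P450 of epithelia that is also induced through the Ah receptor, was 422 in replicate 1 and between 167 and 259 in the other 8. Cyp2t1 ran from 255 in replicate 9 through 444 to 566 in replicate 5.

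Of the 6 P450s of fatty acid and eicosanoid metabolism, 2 had a 2-fold range or more. Cyp2j4, an arachidonic acid epoxygenase, had the widest range, at 419, 501.1, 247, 489, 269, 186, 258, 228 and 198 in replicates 1 to 9. Replicates 1, 2 and 4 were at 419 or more and the other 6 at 269 or less. Its relative Cyp2j10 stayed between 47.8 and 82.3. Cyp4f1 and Cyp4f5 belong to a subfamily that hydroxylates leukotrienes and fatty acids at the end of the chain. Cyp4f1 ran from 5261 in replicate 3 through a median of 6791 to 9720 in replicate 8, and Cyp4f5 from 45.8 through 77.9 to 112. Cyp4v3, also a fatty acid hydroxylase, lay between 926 and 1657 around a median of 1111. Cyp2u1, which hydroxylates long-chain fatty acids, varied least of these, from 152 to 206.

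Of the 5 P450s of sterols, steroids and vitamin D, 3 had a 2-fold range or more. Cyp17a1, which makes androgen precursors and is best known from adrenal and gonads, was 21.6, 59.8, 45.8, 55.4, 78.3, 64.3, 98.8, 127.8 and 54.7 in replicates 1 to 9, lowest in replicate 1 and highest in replicates 7 and 8. Of the 5 adrenal markers found, Fdx1 was highest in replicates 5, 8 and 7, at 3162, 2561 and 2151, the 3 replicates with the highest Cyp17a1. Fdx1 is also listed here as an electron donor of mitochondria, so its level does not mark adrenal tissue alone. Nr5a1 and Akr1b7 were highest in replicate 7, at 5.99 and 2.00, Mc2r in replicate 6, at 8.20, and Star in replicate 2, at 33.4. In replicate 8, where Cyp17a1 was highest, Mc2r was at its lowest, 1.09, with Nr5a1 at 0.544, Akr1b7 at 0 and Star at 15.2. There 1 read was worth 0.544, and in replicate 7 it was worth 0.998, so Nr5a1, Akr1b7 and Mc2r rest on few reads. The part of these markers in the Cyp17a1 values was not tested. Cyp2r1, a vitamin D hydroxylase, was 89.5, 193, 179, 178, 109, 268, 219, 174 and 302 in the same order, with replicates 1 and 5 below all others. Cyp27a1, the mitochondrial sterol hydroxylase of bile acid synthesis, ran from 195 in replicate 3 through 314 to 479 in replicate 1. Cyp39a1 and Cyp7b1, both oxysterol hydroxylases, lay between 75.6 and 146 and between 121 and 181. Cyp20a1, a P450 without an assigned substrate, was among the steadiest genes, from 965 to 1224, a 1.27-fold range.

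Cyp26a1 and Cyp26b1 break down retinoic acid. Cyp26b1 was 491, 238, 123, 291, 489, 1213, 705, 631 and 1095 in replicates 1 to 9. Its highest values were in replicates 6 and 9 and its lowest in replicate 3, a 9.83-fold range and the widest among the genes with at least 10 in every replicate. Cyp26a1 ran only from 25.04 in replicate 4 to 54.7 in replicate 6, around a median of 32.6.

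Of the 3 glycosyltransferases, 1 had a 2-fold range or more. Ugt1a7c, which glucuronidates phenols and comes from the Ugt1a locus, averaged 11291 ± 775 (SD, n = 9) and had the narrowest range of the 32 genes, 1.25-fold. Isoforms of that locus share their last exons, so its reads may include those of other isoforms. Ugt2b35, of the steroid and drug conjugating subfamily, ran from 392 to 717. Ugt8, which adds galactose to ceramide, ran from 212 in replicate 5 through a median of 336 to 426 in replicate 3.

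Among the sulfotransferases, 4 of 6 had a 2-fold range or more. Sult1c2a was 15218, 38126, 29899, 29917, 12672, 23159, 16817, 14466 and 27546 in replicates 1 to 9, with replicates 1, 5, 7 and 8 at 16817 or less and the others at 23159 or more. Its close relative Sult1c2 lay between 22.6 in replicate 1 and 67.7 in replicate 3, and reads shared by both could not be assigned. Sult2b1, which sulfates cholesterol and steroids, was 267, 181, 111, 177, 242, 103, 165, 156 and 91.1 in replicates 1 to 9, highest in replicates 1 and 5 and lowest in replicates 3, 6 and 9. Sult1a1, the phenol sulfotransferase, lay between 2196 in replicate 3 and 4264, Sult1b1, which acts on phenols and thyroid hormone, between 2009 and 4045, and Sult5a1, whose substrate is not known, between 31.1 and 60.8. The plot of all 32 genes by replicate shows these spreads on 1 scale.

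**Figure D1:**
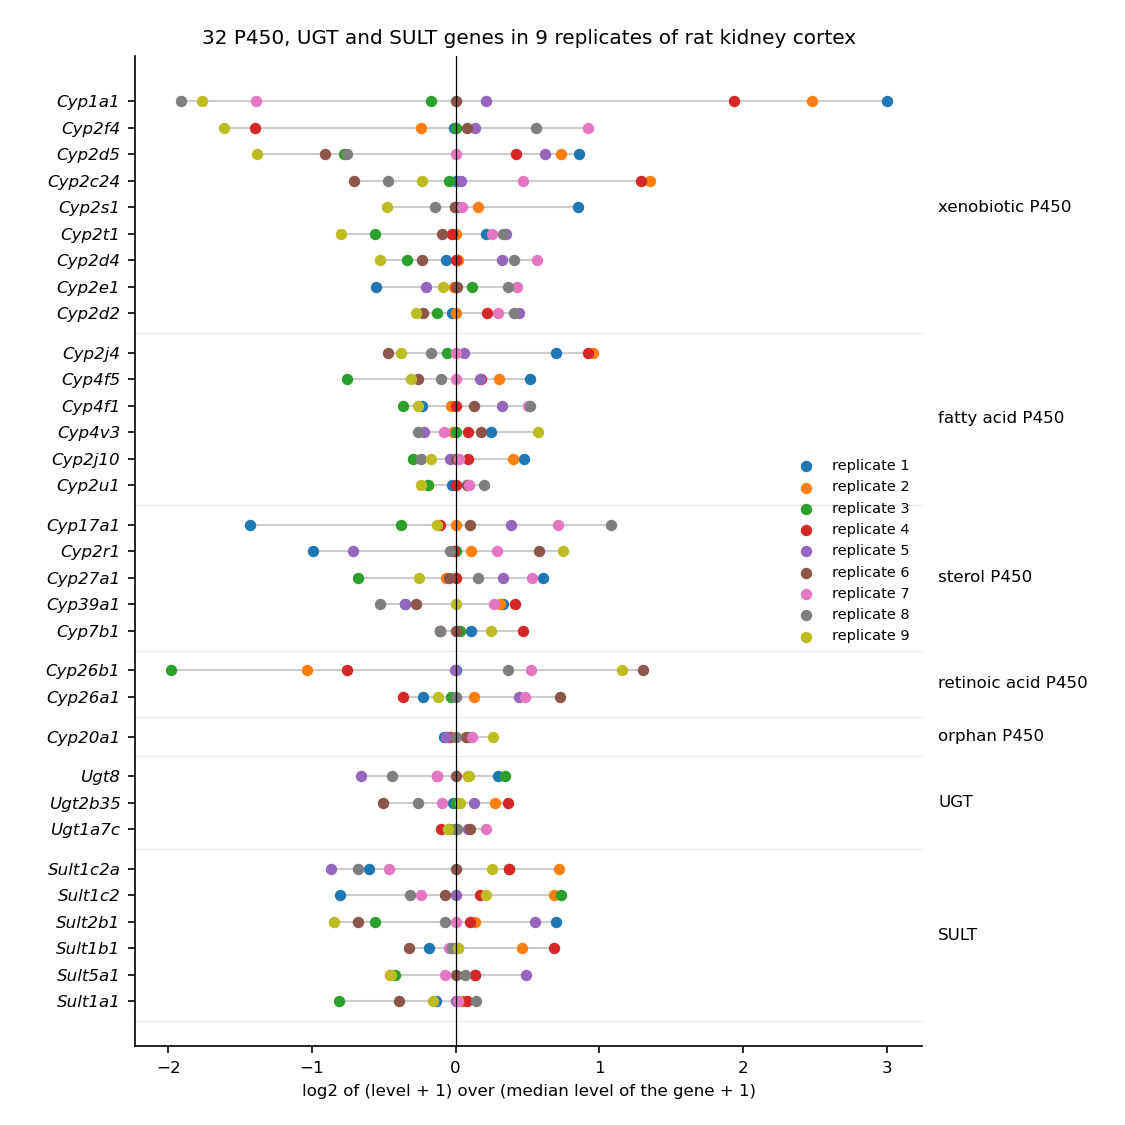
Each row is a gene and each point a replicate, placed on the horizontal axis by the log2 of its level plus 1 over the gene's median level plus 1. Cyp1a1, Cyp26b1, Cyp2f4 and Cyp17a1 spread most, while Ugt1a7c and Cyp20a1 stay within a 1.27-fold range.

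No single replicate was extreme throughout. Replicate 9 was the lowest for 8 of the 32 and replicate 1 the highest for 7, beside 14.0% and 14.2% of all genes tested. Replicate 7 was the lowest for 0 of the 32, beside 3.57% of all genes. Replicate 5 was the lowest for 2 and the highest for 3 of the 32, beside 24.1% and 22.1% of all genes. The median ratio of highest to lowest replicate was 2.16 for the 32 genes and 2.01 for all genes tested, and the median coefficient of variation 24.9% and 23.0%. A limma test of each gene's variance against the trend of variance on level called 0 of the 32 and 0 of 13647 genes (0.0%) at an adjusted p under 0.05. The trend and the spread around it were estimated from the variances of these same genes, so 0 calls do not mean that levels were steady. Without adjustment, 3 of the 32 (9.38%) and 573 genes (4.2%) were under 0.05. These were Cyp26b1 with 14.2 times the trend's variance, Cyp1a1 with 9.63 times and Cyp2d5 with 6.98 times, each with an adjusted p of 0.957 in limma.

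Levels were next set against the proximal tubule. A score was made from 13 markers of S1 and S2 as their mean z-score, scaled to an SD of 1, and a limma slope was fitted for each gene. The markers did not all move together. All were lowest in replicate 1 except Slc34a1 and Slc22a12, which were lowest in replicate 9. Slc22a12 was 6287 in replicate 1, above its median of 4352. In these bulk samples, fewer cells of a type and less RNA per cell cannot be told apart. At an adjusted p under 0.05, 0 of the 32 genes and 0 of 13634 genes (0.0%) were called by limma, and edgeR on the recovered reads also called 0, while 6 of the 32 (18.8%) and 838 genes (6.15%) were under 0.05 without adjustment. Without replicate 1 limma again called 0, and 8 of the 32 and 3391 of 13634 genes were under 0.05 without adjustment. Those shares were nearly equal, so the larger share among the 32 was not seen without replicate 1. The median slope of the 32 was 0.027 beside 0.00021 over all genes. Cyp17a1 had the slope with the smallest p, 0.69 ± 0.10 (SE, n = 9) log2 units per SD of the score with an adjusted p of 0.232 in limma. Its values follow the order of the score nearly throughout, and replicate 1, lowest in Cyp17a1, had a score of -2.33 while the other 8 lay between -0.38 and 0.99. Without replicate 1 the score was scaled anew to an SD of 1 over the other 8. The Cyp17a1 slope was then 0.44 with an adjusted p of 0.111 in limma. Its unit is that new SD, so its size cannot be set against 0.69. DESeq2 on the recovered reads called 95 of 12312 genes (0.772%). Of the 32 genes, 29 had an adjusted p there, and Cyp17a1 alone was called, at 0.000169 in DESeq2. With the multi-mapped share as a covariate, limma called 26 genes (0.191%), again with Cyp17a1 alone among the 32, at a slope of 0.69 and an adjusted p of 0.0380.

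The next slopes were those of Cyp2e1, 0.24 ± 0.070, and Cyp4f1, 0.25 ± 0.084 (SE, n = 9), with adjusted p of 0.490 and 0.580 in limma. Without replicate 1 the Cyp2e1 slope was 0.14 per SD of the score scaled anew, which is not the unit of 0.24. Negative slopes with a small unadjusted p were -1.08 for Cyp1a1, -0.23 for Cyp2s1 and -0.22 for Ugt8, and none passed adjustment, with limma adjusted p of 0.784, 0.793 and 0.793. Without replicate 1 the slope of Cyp2s1 was 0.062 and that of Cyp1a1 -0.39, also per SD of the score scaled anew. Only their signs can be set against the full fit. With the marker Slc34a1, the phosphate transporter, in place of the score, 1877 genes (13.8%) were called by limma, and 6 of the 32: Cyp17a1, Cyp2d2, Cyp2d4, Cyp2t1 and Cyp4f1 rose with it and Ugt8 fell.

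Levels were then set against the S3 segment. Its marker list was an alternative to the S1 and S2 list in the test above, not a separate planned test. With a score from 7 S3 markers, 48 of 13640 genes (0.352%) were called by limma, all rising with the score, and Cyp2d5 was the 1 member among the 32 (3.12%). Its slope was 0.79 ± 0.11 log2 units per SD of the score (SE, n = 9), with an adjusted p of 0.0113 in limma and 0.0124 in edgeR. The call was lost without replicate 6, with a limma adjusted p of 0.0596, and without replicate 9, with 0.0549. On leaving out each replicate, with the score scaled anew each time, the slope stayed between 0.70 and 0.84. The score was 0.67, 1.36, -0.96, 1.12, 0.67, -0.74, 0.13, -1.08 and -1.17 in replicates 1 to 9, so the 4 replicates with the lowest Cyp2d5 were those with the lowest scores. The S3 markers did not all follow it. Slc5a1 was highest in replicates 6 and 9, at 1077 and 862, while the other markers were highest in replicates 1, 2, 4 or 7. Without adjustment 7 of the 32 (21.9%), all with positive slopes, and 3.63% of all genes were under 0.05. Beside Cyp2d5 these were Cyp1a1 with a slope of 1.47 (adjusted p = 0.171), Cyp2j4 with 0.48 (adjusted p = 0.0969), Cyp2c24 with 0.59 (adjusted p = 0.363) and Sult2b1 with 0.41 (adjusted p = 0.620), then Cyp4f5 with 0.31 and Cyp39a1 with 0.25, both at an adjusted p of 0.961 in limma.

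Kap, the androgen-regulated protein of the rodent proximal tubule, also rose with the S3 score, by 1.08 ± 0.079 (SE, n = 9) with an adjusted p of 0.00022 in limma. Its values were 28964, 39963, 8259, 41901, 23157, 7725, 14708, 7194 and 6713 in replicates 1 to 9, with replicates 3, 6, 8 and 9 lowest as for Cyp2d5. The part of androgen state or of sex in the Cyp2d5 slope was not tested. Hnmt, a histamine methyltransferase and 1 of 21 other drug-metabolising enzymes tested, was called as well, with a slope of 1.25 and an adjusted p of 0.0348 in limma.

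**Figure D2:**
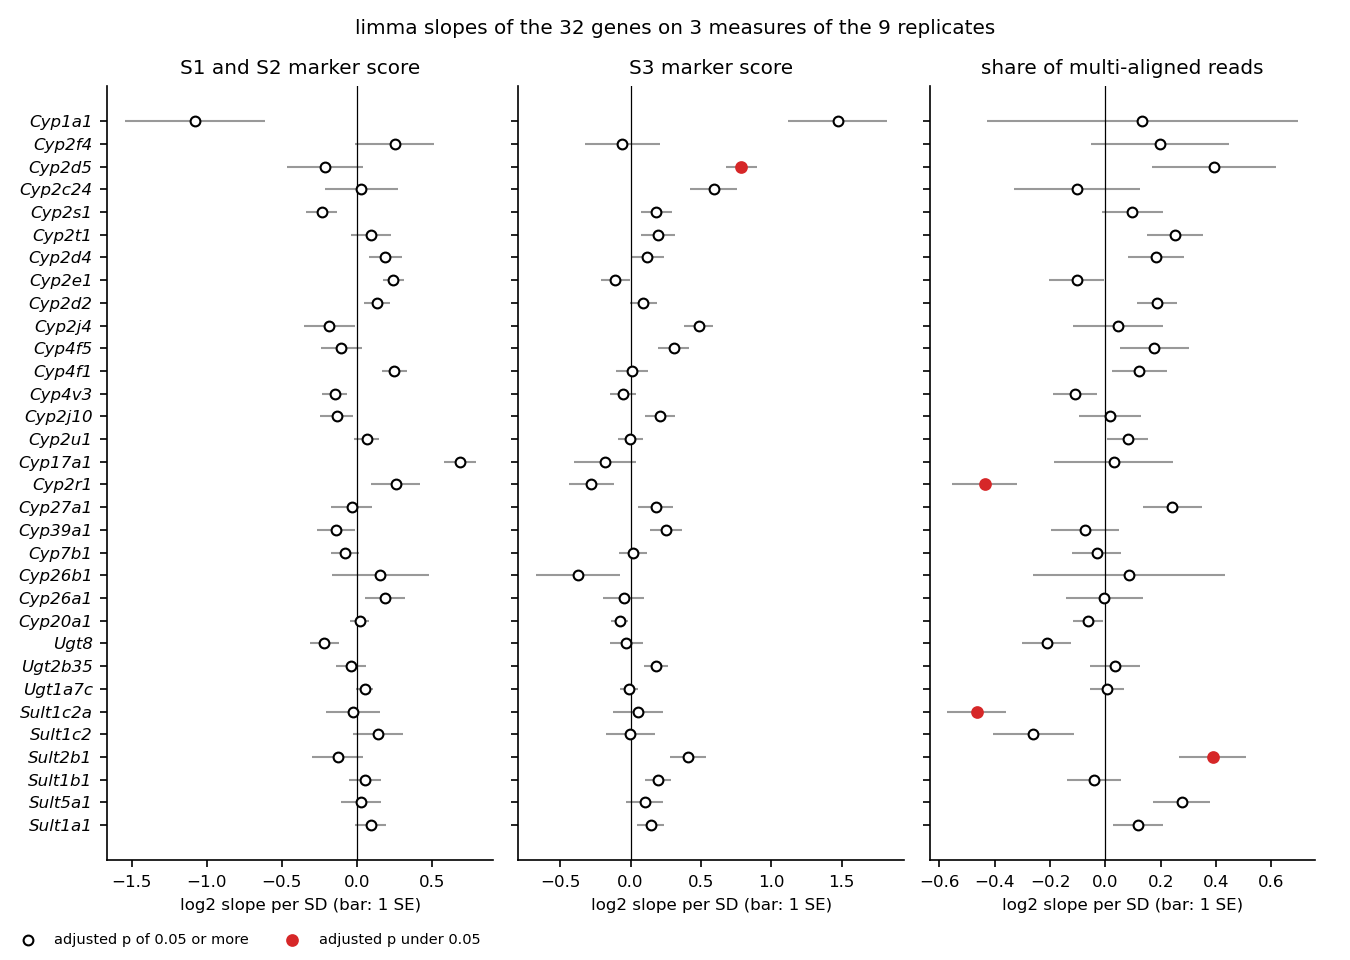
Points give the limma slope of each of the 32 genes in log2 units per SD, bars 1 SE, for the S1 and S2 score, the S3 score and the multi-mapped share. Filled points have an adjusted p under 0.05: none, 1 (Cyp2d5) and 3 (Cyp2r1, Sult1c2a and Sult2b1) in the 3 panels.

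**Figure D3:**
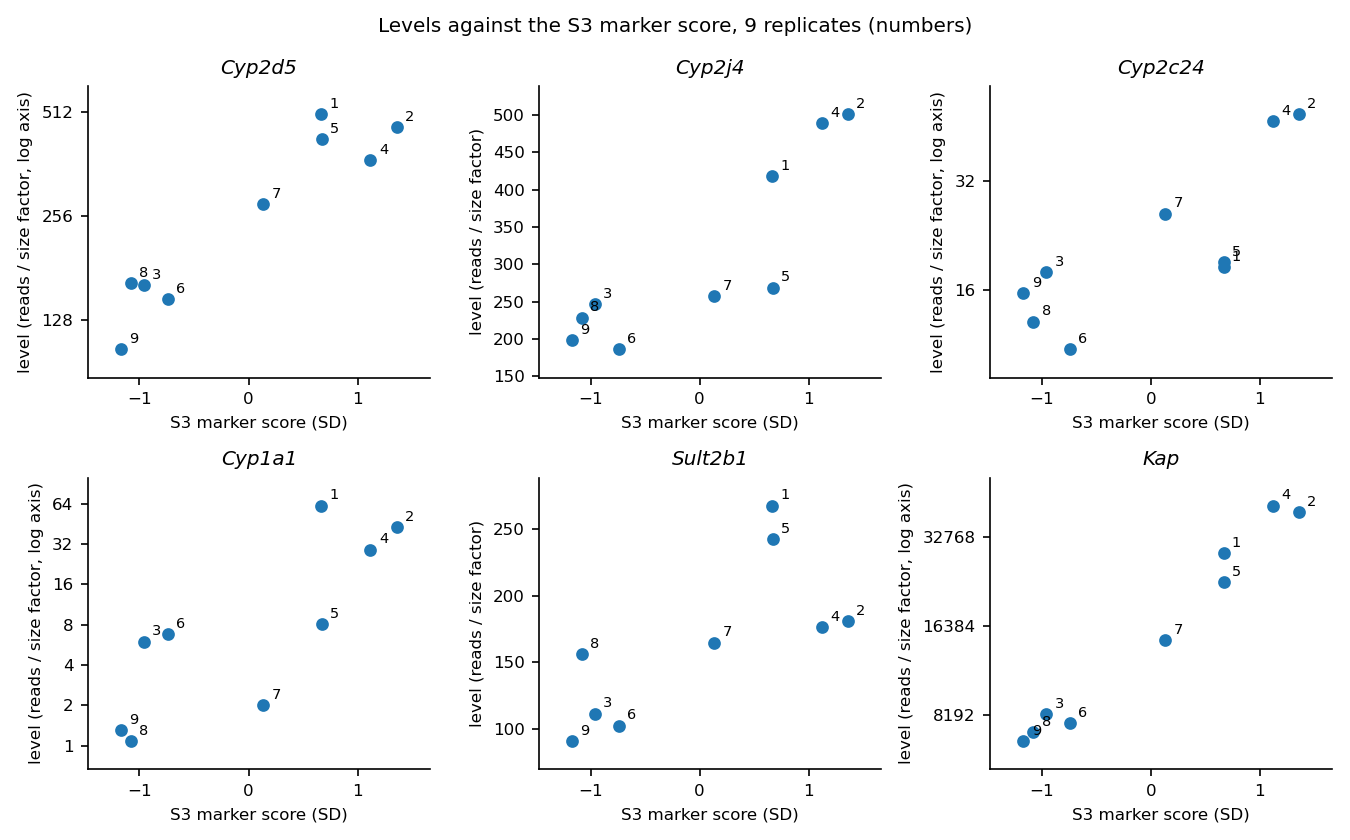
Levels of 5 of the genes and of Kap in 9 numbered replicates are plotted against the S3 marker score in SD, with a log axis for Cyp2d5, Cyp2c24, Cyp1a1 and Kap. Replicates 3, 6, 8 and 9 sit at scores of -0.74 or less and low in Cyp2d5, at 164 or less, and in Kap, at 8259 or less.

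Members of these families have close paralogs, so the multi-mapped share, a property of the library, was fitted in the same way. It went with the levels of many genes: limma called 4774 of 13647 genes (35.0%), 16.3% rising and 18.7% falling. Among the 32 genes 3 (9.38%) were called, and without adjustment 8 (25%), beside 46.4% of all genes. Sult1c2a fell by 0.46 ± 0.11 log2 units per SD of the share (SE, n = 9; adjusted p = 0.00682 in limma), Cyp2r1 fell by 0.44 ± 0.12 (adjusted p = 0.0131) and Sult2b1 rose by 0.39 ± 0.12 (adjusted p = 0.0263). Replicates 1, 5 and 8, with shares of 19.2%, 22.1% and 18.4%, were the 3 with the lowest Cyp2r1 and were among the 4 with the lowest Sult1c2a. Without replicate 5, the library with the largest share, 1740 genes (12.8%) were called and of the 32 only Sult1c2a, and without replicate 7 it was 5 of the 32 beside 4978 of all genes. The Sult2b1 call was also lost without replicate 1 (limma adjusted p = 0.0539), without replicate 6 (0.0605), with libraries scaled to the same total (0.0668) and with library size as a covariate (0.0560). Whether this share or something that moves with it set these levels was not tested.

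**Figure D4:**
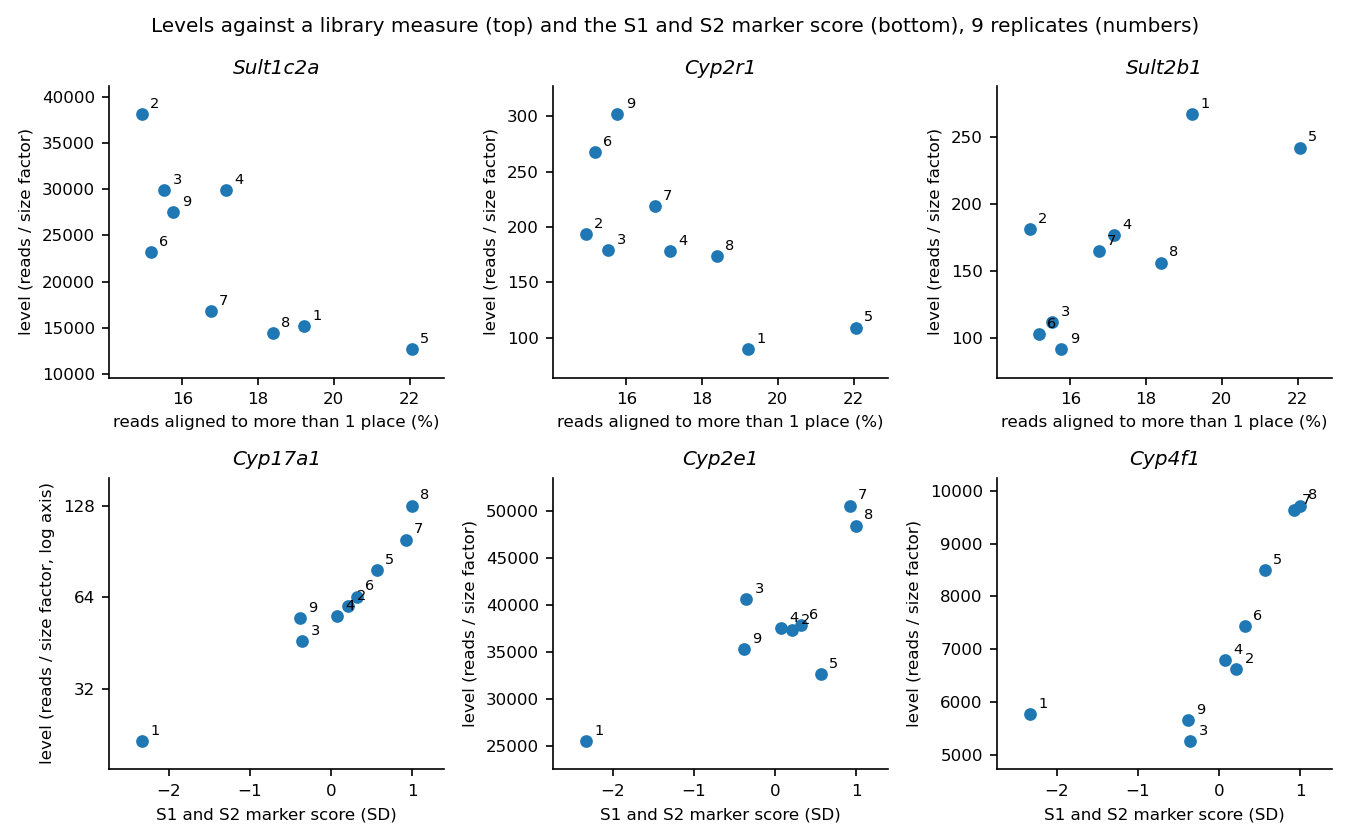
The upper panels plot Sult1c2a, Cyp2r1 and Sult2b1 against the multi-mapped share in percent, and the lower panels Cyp17a1 (log axis), Cyp2e1 and Cyp4f1 against the S1 and S2 score in SD, for 9 numbered replicates. Replicate 1 lies alone at a score of -2.33, and replicate 5 has the largest share, 22.1%.

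For 5 pairs of an enzyme and a gene that shares its regulator, its electron donor or its cell type, Pearson's r over the 9 replicates was tested with a two-sided exact permutation test. No pair passed adjustment over the 5 with all 9 replicates and no covariate. Cyp26b1 and Rarb, the retinoic acid receptor gene that is itself induced by retinoic acid, had r = 0.734 (exact permutation p = 0.0251, adjusted p = 0.125) and Spearman's rho = 0.8 (p = 0.0138, adjusted p = 0.0691). Rarb was highest in replicates 6, 9 and 7, as was Cyp26b1, and ran from 181 to 306. Without replicates 3 and 5, farthest from the median of Rarb, r was 0.822. Without replicate 5 alone r was 0.909 (exact permutation, adjusted p = 0.0093), and with the multi-mapped share as a covariate 0.872 (adjusted p = 0.0103), both past the threshold. Cyp2e1 and Por, the oxidoreductase that supplies its electrons, had r = 0.658 (exact permutation p = 0.0632, adjusted p = 0.158) but rho = 0.317 (p = 0.410, adjusted p = 0.513). Por was 6758 in replicate 1, where Cyp2e1 was lowest too, and between 9503 and 13173 elsewhere. Without replicates 1 and 5 r was 0.829, and without replicate 1 alone it was 0.239 (exact permutation, adjusted p = 0.601). It passed the threshold without replicate 5 alone, with r = 0.938 (exact permutation, adjusted p = 0.0125), and with the multi-mapped share as a covariate, with 0.827 (adjusted p = 0.0144).

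Cyp27a1 and Fdx1, the mitochondrial ferredoxin, had r = 0.442 and rho = 0.533 (exact permutation p = 0.236 and 0.148, adjusted p = 0.296 and 0.369), and r = 0.471 without replicates 5 and 8. Cyp2e1 and the S3 transporter Slc7a13 had r = -0.509 and rho = -0.45 (exact permutation p = 0.161 and 0.230, adjusted p = 0.269 and 0.383), and r = -0.42 without replicates 4 and 8. Cyp1a1 and Tiparp, both targets of the Ah receptor, had r = -0.076 and rho = -0.067 (exact permutation p = 0.837 and 0.880, adjusted to the same values), and r = 0.459 without replicates 1 and 5. Replicate 1, with the highest Cyp1a1, had 164 of Tiparp, and replicate 6, with the highest Tiparp, had 463.

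**Figure D5:**
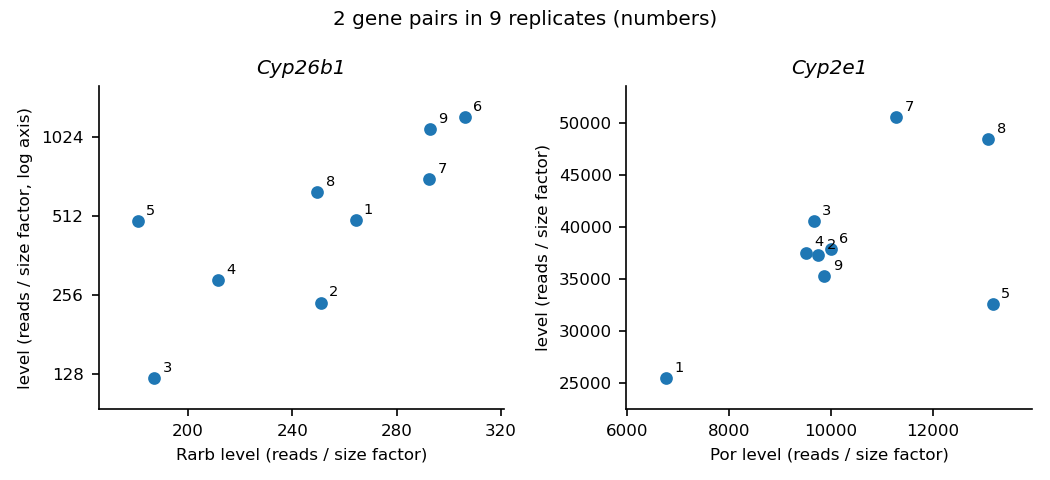
Levels of Cyp26b1 (log axis) against Rarb and of Cyp2e1 against Por are plotted in 9 numbered replicates. Cyp26b1 and Rarb are both highest in replicate 6, with r = 0.734, and replicate 1 lies lowest in both Cyp2e1 and Por.

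Among themselves the 32 genes had no common course. Over their 496 pairs the median r across the 9 replicates was 0.068, beside -0.0034 over all pairs of genes tested, and 2 pairs (0.403%) were above 0.9, beside 1.86% of all pairs. These pairs were Sult2b1 with Cyp2d5, at 0.920, and Cyp2d2 with Cyp2d4, at 0.909. Cyp4f1 and Cyp2t1 also went with Cyp2d4, at 0.883 and 0.877, and the lowest r was -0.884, between Cyp2r1 and Sult2b1. All these values share the same 9 libraries.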

How the data were processed

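Kidney cortex RNA from 9 replicates of 1 group was sequenced after flash freezing, column isolation and stranded mRNA library preparation, per the labels' protocols. Per the submitters' processing notes the tools were HTSeq 0.6.1p1, DESeq2, FastQC 0.11.2 and MultiQC 0.9 and the build Rnor_5.0. The sources used here do not give the aligner or say whether counting used strand. The authors deposited a signal, read counts per gene divided by a size factor for each library. The table has 18423 rows, 3 of which name no gene and were kept out of the gene tests (reads outside genes, ambiguous, or multi-mapped, at 28.9% ± 2.93, 0.106% ± 0.0129 and 17.2% ± 2.33 of counted reads, SD, n = 9). Whole reads were recovered from the steps of the low values, with 100% of values within 0.1 of a whole read. No 2 libraries were copies: r was 0.939 to 0.993 over 36 pairs, and read counts differed beyond counting error (chi-square per degree of freedom 19.7 to 196.4).

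Tests used log2 of the value plus 1 over 13647 genes (mean 10 or more), or those less the markers of the score, with limma 3.58.1 in R 4.3.3 (robust trend, Benjamini-Hochberg adjustment over all genes, threshold 0.05). edgeR 4.0.16 (quasi-likelihood) and DESeq2 1.42.0 on the recovered reads were alternatives. Scripts were tested on simulated data. The pairs were tested over all orders of the replicates with Python 3.11.15 and SciPy 1.17.1. Of 9 pairs planned, 5 had both genes at a mean of at least 10. Cyp1b1, planned with Ahr, and Cyp11a1, planned with Star, averaged under 10. Ugt1a6, planned with Nqo1, and Cyp4b1, planned with Kap, were not among the genes listed. Values in every replicate were given for Sult1c2a, Cyp26b1, Cyp2j4, Cyp2d5, Cyp2r1, Sult2b1, Cyp17a1, Cyp2c24 and Cyp1a1. The other members, some with higher means, were given by range, mean or median. The members, gene lists and pairs were chosen with earlier results of these data known. Alternatives were other pseudocounts (0.5 and 5), mean limits, scalings, covariates and leaving out each replicate. When a replicate was left out, the scores and the multi-mapped share were scaled anew to an SD of 1 over those kept. Slopes per SD from those fits are therefore not in the unit of the full fit.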

Additional observations from a re-analysis of the deposited data

Results flagged for a closer look

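Of 37 genes looked at (the 32 enzymes and the genes paired with them), 2 had a replicate that stood far from the other 8 on the log2 scale. For Cyp2s1, the highest replicate, replicate 1, was separated from its nearest neighbour by 0.523 of the whole range, above Dixon's limit of 0.493 for 9 samples. For Por, the lowest replicate, again replicate 1, was separated by 0.511 of the range. Chance flags about 1 in 20 groups.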

How the results depend on the processing

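No paired analysis was possible because all replicates belong to 1 group. Of the Cyp1a1 and Tiparp values of r, 3 had the opposite sign: 0.0389 with libraries scaled to 1 total, 0.278 without replicate 1 and 0.0633 without replicate 9, with a range of -0.299 to 0.278 on leaving out 1 replicate. Without replicate 5, Cyp26b1 with Rarb reached r = 0.909 and Cyp2e1 with Por 0.938, both then past the threshold, with ranges of 0.612 to 0.909 and 0.239 (without replicate 1) to 0.938 on leaving out 1 replicate. With the multi-mapped share as a covariate these were 0.872 and 0.827, again past it, and Cyp27a1 with Fdx1 was -0.049. The median r among the 32 genes was 0.150 with libraries scaled to the same total.

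On the S1 and S2 score, 0 of the 32 genes were called on leaving out any 1 replicate, 1 with the share as a covariate (26 of all genes), 6 with Slc34a1 alone, 1 with the S3 list in its place, 1 with DESeq2 and, chosen after seeing the data, 5 with the share as a covariate and without replicate 1 (1743 of all genes). The fit with the S3 list is the same as the S3 score fit given above. With the S3 list the slopes of Cyp17a1, Cyp2e1, Cyp1a1 and Cyp2s1 were -0.18, -0.11, 1.47 and 0.18. On the S1 and S2 score the Cyp2s1 slope ran from -0.28 to 0.062 on leaving out 1 replicate, with the score scaled anew each time. It was 0.062 without replicate 1 and 0.067 with the share as a covariate as well. On the S3 score, settings added after seeing the data called 3 of the 32 with libraries scaled to the same total (70 of all genes), 2 with the share as a covariate (89 of all genes), and 0 to 2 on leaving out 1 replicate (13 to 57 of all genes), with 0 without replicate 6 or 9. On the share itself, 1 to 5 were called on leaving out 1 replicate, beside 1740 to 4978 of all genes. The causes of these shifts were not tested. Cyp1a1 rests on few reads in replicates 3, 7, 8 and 9, with 3, 2, 2 and 1.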

Other observations

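Genes that work with these enzymes were fitted on the same library measure, with which limma called 35.0% of all genes. Among electron donors, 3 of 8 tested genes rose with the multi-mapped share of reads and 0 fell (limma): Fdx1 and Fdx1l, the mitochondrial ferredoxins, with slopes of 0.30 and 0.40 log2 units per SD, and Cyb5r3, cytochrome b5 reductase, with 0.18. Of 17 regulators 4 rose and 4 fell. Those that fell were Ahr (-0.62), Arnt (-0.51), Tiparp (-0.55) and Ppara (-0.62), and those that rose were the nuclear receptor genes Nr0b2 (0.49), Nr1h2 (0.38), Nr1h3 (0.22) and Rara (0.23). The median slopes were 0.082 for electron donors and -0.092 for regulators, beside 0.016 over all genes.

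Of the genes that supply UDP-sugars, 1 of 6 fell, the UDP-sugar transporter Slc35d1 (-0.58). Of those that handle sulfate, 2 of 8 rose, the PAPS transporter Slc35b2 (0.26) and the steroid sulfatase Sts (0.32), and 1 fell, the sulfate transporter Slc13a1 (-0.28). Of 21 other drug-metabolising enzymes only Fmo5 (-0.21) fell. On the S1 and S2 score 0 genes of these 5 lists were called by limma, and at an unadjusted p under 0.05 it was 2 of 8 electron donors, 1 of 16 regulators, 0 of 6 sugar donor genes, 1 of 8 sulfate donor genes and 7 of 21 other enzymes, beside 6.15% of all genes.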
